A study of Mus musculus with 6 samples.

Results

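The genes described here are 10 that carry out or switch on the making of fatty acids and their desaturation, compared between the T1 and T2 populations of a mouse mammary tumor. The 10 genes are Acly, Acss2, Acaca, Fasn, Elovl6, Scd1, Scd2, Fads1, Fads2 and Srebf1. They were taken by gene symbol from a named list that was drawn up with results of these data in view. The list holds 10 of the 24129 rows of the expression table. Because the list was chosen on the comparison of T1 with T2 cells, the differences of its members are given as a description. The members went through the same fit as all genes, but no p-value is printed for a single member. Intervals show the precision of each log2 fold change given the spread between samples. The counts of members past a threshold stand beside those of all genes and support nothing.

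The tumor came from 4T1GFP cells, the 4T1 mouse mammary carcinoma line carrying green fluorescent protein (GFP), grown in BALB/c mice. T1 and T2 cells are both tumor cells of 1 primary tumor, recovered from a culture that had been sorted for fibroblasts and that tumor cells outgrew, and then separated by their GFP level. T1 cells (4T1A in the labels) adhere, look epithelial, divide fast and are aggressive in mice, and T2 cells (4T1NA) are round and loosely attached, divide slowly and are less aggressive. RNA sequencing of 3 samples of T1 cells and 3 of T2 cells, grown in the same serum-containing medium, was used. The study's methods call replicates biological in general, but neither they nor the labels say whether the 3 samples sequenced per population were separate cultures. The p-values therefore weigh a difference against the spread between these samples, which may be partly technical.

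The 6 libraries held 18133227 to 20839686 reads on genes, and 1 read was worth 0.928 to 1.06 normalized counts. Fibroblast, leukocyte, endothelial and adipocyte genes were read as markers of other cells. Of 8 adipocyte markers 6 had no read in any library, and their summed level was 0 to 1.06 normalized counts in T1 and 0 to 0.928 in T2 cells. The summed level of 7 fibroblast markers was 225 to 241 in T1 cells and 997 to 1295 in T2 cells. That difference was Pdgfra alone, at means of 199 and 1099, while Col1a1 had 14, 30 and 25 reads in the T1 libraries and 1, 0 and 0 in the T2 libraries, and Col1a2 had 4, 7 and 12 against 0, 0 and 0. Col3a1, Lum and Pdgfrb had no read in any library. The sums over 7 leukocyte and 6 endothelial markers stayed at or below 9.30 and 6.35 normalized counts. Of 6 epithelial markers Krt8 and Krt18 were abundant in both populations, at T1 means of 22067 and 23275 normalized counts and T2 means of 19195 and 21658, and Krt5 had no read. The other 3 were far higher in T1 cells, with T1 and T2 means of 3141 and 34.7 for Epcam, 14748 and 465 for Cdh1 and 3795 and 3.04 for Krt14, in the same direction as the members that were higher in T1 cells. The sum over the 6 epithelial markers was 64001 to 69949 in the T1 samples and 37480 to 43407 in the T2 samples. The part that cell makeup has in the results was not tested beyond these values, and in bulk RNA fewer cells making a transcript and less of it per cell cannot be told apart.

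Cells make fatty acids from acetyl-CoA. Acly cuts citrate and Acss2 activates acetate to supply acetyl-CoA, Acaca carboxylates it to malonyl-CoA, and Fasn assembles palmitate from both. Elovl6 lengthens palmitate, the stearoyl-CoA desaturases Scd1 and Scd2 turn saturated acyl chains into monounsaturated ones, and Fads1 and Fads2 desaturate polyunsaturated chains taken up from outside. Srebf1 encodes SREBP-1, a membrane-bound transcription factor that is released when sterols are low and that binds sterol regulatory elements in lipogenic genes. Tumor cells are known to make much of their own fatty acid.

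Sequences at the start of the genes are shown first, since the members range from similar levels in T1 and T2 cells to large differences. RefSeq windows of 300 bases, 250 before and 50 after the annotated start (GRCm38.p6, the mm10 build of the files), were found for 7 of the 10 members. Scd1, Scd2 and Fads1 had no entry. The Acaca window (chr11:84195188-84195487, plus strand), counted among the 7, lies inside the gene, which starts at 84129672 in GENCODE M21. It is therefore not at the outermost start of Acaca. The Fasn window (chr11:120824498-120824797, minus strand), the Fads2 window (chr19:10101454-10101753, minus strand) and the window of Fads3, the gene beside Fads2 (chr19:10041298-10041597, plus strand), are printed 5′ to 3′. They are the member at about the same level in both populations, a member with a large difference and the neighbour that was also high in T1 cells. Capitals mark the CCAAT box (CCAAT, or ATTGG on the other strand) and the GC box (GGGCGG, or CCGCCC on the other strand), sequences bound by NF-Y and Sp1.
Fasn: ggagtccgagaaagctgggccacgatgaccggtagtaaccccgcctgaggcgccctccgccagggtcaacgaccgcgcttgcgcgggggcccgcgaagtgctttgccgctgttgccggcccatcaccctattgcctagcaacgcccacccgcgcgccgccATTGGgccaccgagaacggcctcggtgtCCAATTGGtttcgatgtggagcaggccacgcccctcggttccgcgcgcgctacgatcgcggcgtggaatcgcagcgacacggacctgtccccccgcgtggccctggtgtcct
Fads2: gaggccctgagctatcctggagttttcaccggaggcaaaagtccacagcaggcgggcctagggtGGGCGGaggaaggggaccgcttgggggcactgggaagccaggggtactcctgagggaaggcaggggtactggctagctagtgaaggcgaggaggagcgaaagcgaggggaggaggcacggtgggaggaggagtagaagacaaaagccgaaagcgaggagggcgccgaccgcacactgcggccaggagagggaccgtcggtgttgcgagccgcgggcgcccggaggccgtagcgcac
Fads3: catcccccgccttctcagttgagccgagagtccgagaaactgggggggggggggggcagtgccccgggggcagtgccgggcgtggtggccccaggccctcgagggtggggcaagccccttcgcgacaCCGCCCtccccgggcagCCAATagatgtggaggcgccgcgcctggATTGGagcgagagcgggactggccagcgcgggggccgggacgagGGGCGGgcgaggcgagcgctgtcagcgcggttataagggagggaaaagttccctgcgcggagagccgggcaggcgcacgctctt

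Of the 7 members with a window, 4 (Fasn, Acly, Acss2 and Srebf1) held a CCAAT box, which occurs at 41.1% of 27025 genes and in 37.4% of all 32851 windows. The Fasn window holds 3, beginning at positions -90, -62 and -59 counted from the start, of which the last pair overlap on opposite strands. A GC box was also found in 4 members (Acly, Acss2, Fads2 and Srebf1) and occurs at 38.2% of genes and in 35.7% of windows. The core of the sterol regulatory element, TCACCCCAC, searched on both strands, was in none of the 7 and is in 0.551% of all windows. With 1 letter open (TCACNCCAC, which also takes every TCACCCCAC) it was again in none, against 1.24% of windows, and the E-box CACGTG, which reads the same on both strands, was in none against 7.15%. These matches describe letters in 300 bases and say nothing of binding there or elsewhere.

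Among the members T1 and T2 cells differed most in 3 of the 4 desaturases. Scd2 was 17.5 times, Fads2 9.09 times and Scd1 5.30 times as high in T1 cells as in T2 cells, while Fasn, the synthase itself, was at 1.12 times. Acly, Acaca and Fads1 stood between, at 1.85, 1.80 and 1.60 times. Of the 10 members 6 passed an adjusted p under 0.01 (limma with Benjamini-Hochberg adjustment over the 11514 genes whose mean reached 10 normalized counts), all 6 higher in T1 cells and 0 lower. Of all genes compared 49.5% passed, 25.1% higher and 24.4% lower. With a log2 fold change above 2 as well, 3 members were higher and 0 lower, where 8.37% of all genes passed, 4.17% higher and 4.2% lower. The T1 and T2 values did not overlap in 8 members, with T1 higher in each, where 68.1% of all genes did not overlap, 34.2% with T1 higher and 33.9% with T1 lower. All 10 members passed the filter on low counts. Their median log2 fold change was 0.76, beside a median of -0.01 over all genes compared. Nothing is read from these counts, because the members were picked on the same comparison.

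**Figure D1:**
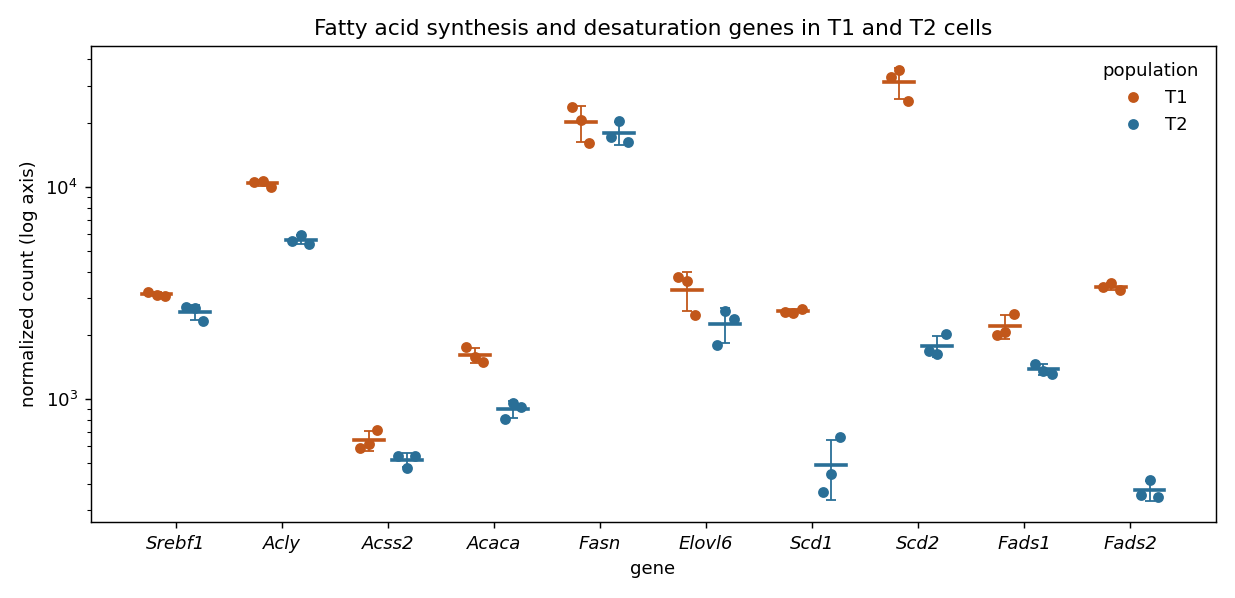
Normalized counts (log axis) of the 10 genes in each of the 3 T1 and 3 T2 samples, with points for samples, horizontal bars for the mean and error bars for the SD. The populations lie far apart for Scd1, Scd2 and Fads2 and overlap for Fasn and Elovl6.

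The plot of normalized counts by sample follows the pathway from its regulator and its precursor enzymes on the left to the desaturases on the right. All 10 members had at least 362 reads in every library. Gene coordinates are those of GENCODE M21 on mm10.

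Acly (chr11:100476353-100528000, minus strand), which supplies acetyl-CoA from citrate, was measured at 10578, 10718 and 10049 normalized counts in the T1 samples and at 5578, 5940 and 5418 in the T2 samples. The populations did not overlap and each was tight, with means of 10448 ± 353 and 5646 ± 268 (SD, n = 3 each). The log2 fold change of T1 over T2, taken on log2(normalized count + 1), was 0.89 (SE 0.07, 95% interval 0.73 to 1.04).

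Acss2 (chr2:155517948-155585724, plus strand), the acetate-activating enzyme of cytosol and nucleus, was at 588, 616 and 719 normalized counts in T1 and at 542, 475 and 542 in T2 cells. The lowest T1 sample lay just above the highest T2 samples, and the log2 fold change was 0.30 (SE 0.11, 0.04 to 0.55). Its exons share 395 bases with Gss, 335 with Acss2os and 197 with Ggt7 on the opposite strand, and the strand setting of the counting is not given in the sources used here, so reads of these genes may not be separable.

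Acaca (chr11:84129672-84401651, plus strand), acetyl-CoA carboxylase and the committed step of the pathway, was at 1761, 1586 and 1496 normalized counts in T1 cells. In T2 cells it was at 806, 964 and 922. Every T1 sample was well above every T2 sample, and the means of 1614 ± 135 and 898 ± 82.2 (SD, n = 3) gave a log2 fold change of 0.85 (SE 0.10, 0.62 to 1.07).

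Fasn (chr11:120805846-120824547, minus strand) encodes fatty acid synthase, the multifunctional enzyme whose window is printed above. It was at 23895, 20623 and 16127 normalized counts in the T1 samples and at 17236, 20479 and 16365 in the T2 samples. The populations overlapped fully, the lowest of all 6 values being T1 replicate 3 and the highest T1 replicate 1. The means were 20215 ± 3900 and 18026 ± 2168 (SD, n = 3), and the log2 fold change was 0.15 (SE 0.14, -0.15 to 0.46). It was 0.02 without T1 replicate 1 and 0.31 without T1 replicate 3. The interval reaches a log2 fold change of 0.46, so a difference of that size is within the error.

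Elovl6 (chr3:129532355-129638495, plus strand), the elongase of saturated and monounsaturated chains, was at 3770, 3604 and 2495 normalized counts in T1 and at 1794, 2604 and 2398 in T2 cells. T2 replicate 2 was above T1 replicate 3, so the populations overlapped. The log2 fold change of 0.53 (SE 0.17, 0.15 to 0.91) was 0.37 without T2 replicate 1 and 0.72 without T1 replicate 3. Its exons share 34 bases with Gm35986 on the opposite strand.

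**Figure D2:**
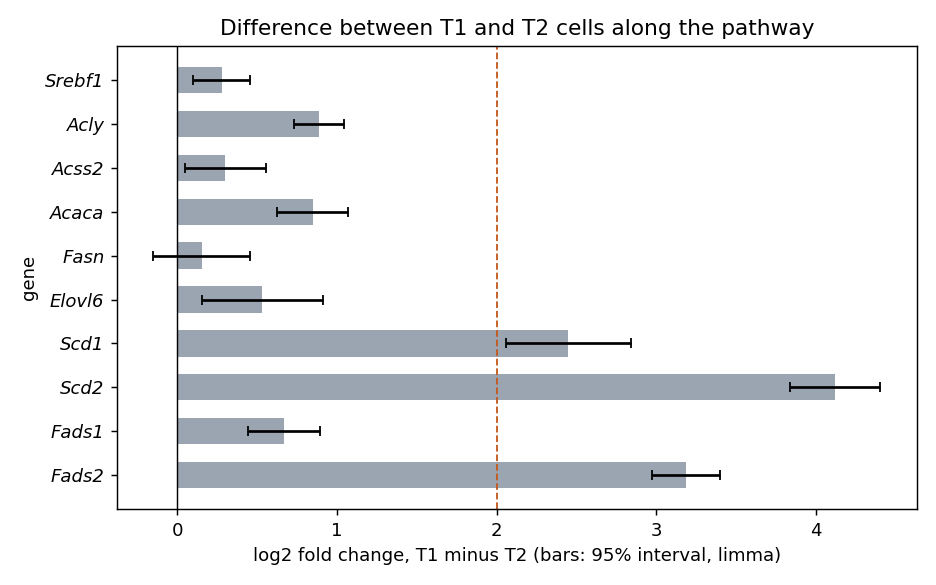
Log2 fold change of T1 over T2 cells on log2(normalized count + 1) for the 10 genes in pathway order, with the 95% interval from limma as error bars and a dashed line at 2. Scd1, Scd2 and Fads2 reach past the line, and the bar of Fasn has an interval that spans 0.

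The plot of fold changes along the pathway shows the 3 large differences side by side with 7 members whose log2 fold change was under 1.

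Scd2 (chr19:44293674-44306864, plus strand), a stearoyl-CoA desaturase known from brain and many other tissues, was at 32856, 35566 and 25419 normalized counts in the T1 samples. The T2 samples were at 1695, 1633 and 2022. The lowest T1 value was far above the highest T2 value, and the means were 31280 ± 5254 and 1783 ± 209 (SD, n = 3), a log2 fold change of 4.12 (SE 0.13, 3.84 to 4.40). The exons of Scd2 hold 61 bases of Mir5114 on the same strand.

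Scd1 (chr19:44394455-44407879, minus strand), the main desaturase of liver and fat, was at 2584, 2564 and 2662 normalized counts in the T1 samples and at 364, 446 and 662 in the T2 samples. The T1 samples were close together, with a mean of 2603 ± 51.5 (SD, n = 3). The T2 samples were spread around 491 ± 154, with T2 replicate 3 the highest. The log2 fold change was 2.45 (SE 0.18, 2.06 to 2.84), which is the nearest to 2 among the members past it. Leaving out any 1 library gave 2.26 to 2.69. The member next below the line of 2 was Acly at 0.89.

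Fads2 (chr19:10062765-10101746, minus strand), which makes the first desaturation of dietary polyunsaturated chains, was at 3377, 3520 and 3281 normalized counts in the T1 samples. It was at 354, 419 and 346 in the T2 samples. The samples of each population lay close together around means of 3393 ± 120 and 373 ± 39.8 (SD, n = 3), and the log2 fold change was 3.19 (SE 0.10, 2.97 to 3.40).

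Fads1 (chr19:10182888-10196877, plus strand), which acts after Fads2 on the same chains, was at 2007, 2082 and 2536 normalized counts in T1 and at 1470, 1367 and 1309 in T2 cells. The populations were apart but much closer than for Fads2, with means of 2208 ± 286 and 1382 ± 81.3 (SD, n = 3) and a log2 fold change of 0.67 (SE 0.10, 0.44 to 0.90).

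Srebf1 (chr11:60199089-60222581, minus strand), the regulator, was at 3194, 3116 and 3065 normalized counts in T1 and at 2714, 2692 and 2340 in T2 cells. The populations did not overlap, and the log2 fold change was 0.28 (SE 0.08, 0.10 to 0.46). The count sums all its transcripts, so SREBP-1a and SREBP-1c are not told apart, and 109 exonic bases are shared with Rai1 on the opposite strand. These are transcript levels, and the release of the protein from the membrane was not measured.

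Within T1 cells the replicates did not move together. T1 replicate 3 was the lowest of the 3 T1 samples for 7 of the 10 members, among them Scd2, Fasn and Elovl6, and the highest for the other 3, Scd1, Acss2 and Fads1.

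To compare genes with each other, each value was divided by the exonic length of the gene, giving normalized counts per kb. In T1 cells Scd2 led at 5725 per kb, followed by Acly at 1979 and Fasn at 1847, whose ranges overlapped. Fads2 stood at 1030, and then came Srebf1 at 555, Scd1 at 532, Elovl6 at 512 and Fads1 at 459, each overlapping the next in its range. Acaca at 94.5 and Acss2 at 63.1 were the lowest.

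In T2 cells Fasn led at 1647 per kb, and Acly followed at 1069. Srebf1 was at 458, Elovl6 at 352, Scd2 at 326 and Fads1 at 287, of which Scd2 overlapped Elovl6 and Fads1. Fads2 at 113 and Scd1 at 100.3 overlapped each other, as did Acaca at 52.6 and Acss2 at 51.1. Scd2 was thus first among the members in T1 cells and the fifth in T2 cells. The order in the middle and at the bottom depends on the length used. Per kb of the longest coding transcript Acss2 was above Acaca, at 219 against 170 in T1 and 177 against 94.4 in T2 cells. On that length Fads1 stood at 638 against 539 for Scd1 in T1 cells and at 399 against 327 for Scd2 in T2 cells, where Scd2 was the sixth, while Scd2 still led in T1 and Fasn in T2 cells.

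Among the 11127 compared genes with an exonic length, the T1 mean per kb of Scd2 was at the 99.2 percentile and its T2 mean at the 71.3. Fads2 went from the 91.4 percentile in T1 cells to the 43.6 in T2 cells, and Scd1 from the 81.9 to the 40.6. Fasn was at the 96.0 and the 95.9 percentile, among the most abundant transcripts of both populations.

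The balance between synthase and desaturase differed accordingly. Scd1 and Scd2 together were at 2.997, 3.73 and 3.53 times the Fasn level per kb in the T1 samples and at 0.244, 0.209 and 0.338 times in the T2 samples. Desaturase transcripts therefore outnumbered synthase transcripts per kb in every T1 sample and were outnumbered in every T2 sample. Against Elovl6 the same ratio was 12.4 ± 1.13 in T1 and 1.23 ± 0.233 in T2 cells (SD, n = 3). These ratios are built from the comparison that chose the members and carry no test.

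**Figure D3:**
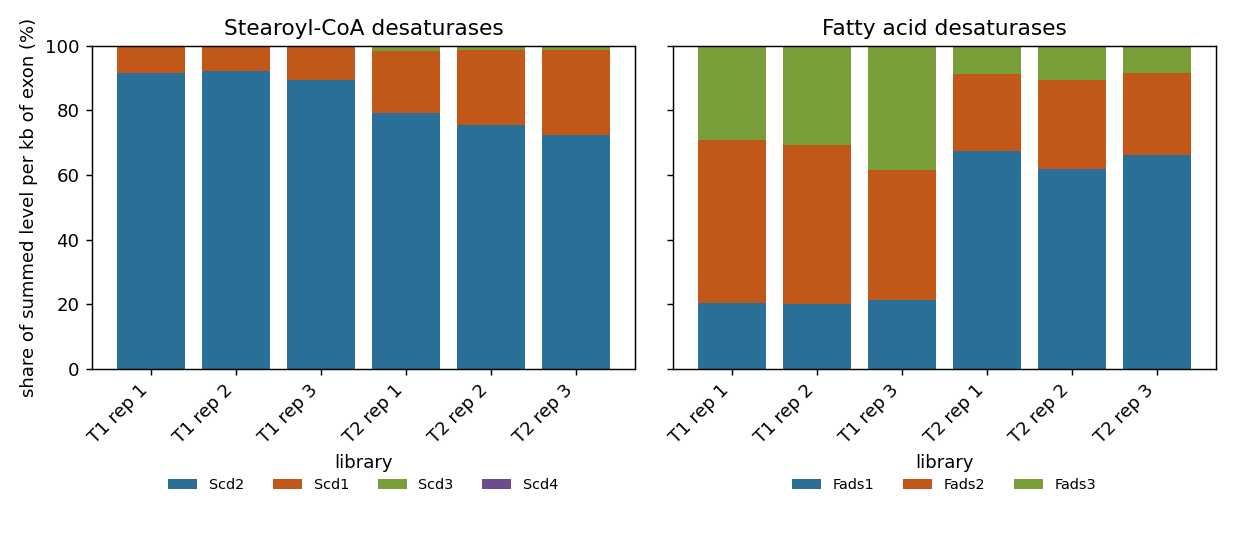
Share of the summed level per kb of exon (in %) taken by each stearoyl-CoA desaturase (left) and each fatty acid desaturase (right) in each of the 6 libraries. Scd2 takes most of the first sum in all 6 libraries, and the largest share of the second sum is Fads2 in the T1 libraries and Fads1 in the T2 libraries.

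The plot of desaturase shares sets the members beside their paralogs, and reads that match more than 1 paralog can make such splits uncertain. The summed level of Scd1 to Scd4 was 6270 ± 953 per kb in T1 and 433 ± 68.3 in T2 cells (SD, n = 3). Scd2 made up 91.1% ± 1.59 of it in T1 and 75.7% ± 3.49 in T2 cells. The Scd1 share of Scd1 and Scd2 was 8.07%, 7.45% and 10.5% in the T1 samples and 19.4%, 23.4% and 26.8% in the T2 samples, without overlap. It changed little with the longest coding transcript as the length, an alternative chosen after the data were seen, at means of 8.75% and 23.4%.

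The 4 stearoyl-CoA desaturase genes lie together on chromosome 19 in the order Scd3, Scd2, Scd4 and Scd1, with gaps of 49657, 26227 and 47711 bases. Scd4, which is no member and is known from heart, had 26, 37 and 30 reads in the T1 libraries and 0, 2 and 4 in the T2 libraries (adjusted p = 0.00023, limma with Benjamini-Hochberg adjustment). Scd3, a desaturase known from skin, was at 16.9, 26.0 and 11.7 normalized counts in T1 and 23.5, 17.4 and 19.5 in T2 cells. It did not pass the test, with a log2 fold change of -0.19 and an adjusted p of 0.65 by the same method. Both were rare beside Scd1 and Scd2. The genes flanking the group, Wnt8b and Pkd2l1, had at most 1 read in any library.

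The fatty acid desaturases also lie side by side on chromosome 19, in the order Fads3, Fads2 and Fads1, with gaps of 2654 and 81141 bases. Fads3, a family member that desaturates sphingoid bases, was at 2265, 2514 and 3611 normalized counts in T1 and at 148, 185 and 132 in T2 cells. It was therefore high in every T1 sample, like Fads2, and its log2 fold change was 4.15 (SE 0.18, adjusted p = 4.1e-08, limma with Benjamini-Hochberg adjustment). Fen1, a DNA repair nuclease 2254 bases beyond Fads1, was at 2300, 2369 and 2072 in T1 cells and at 2380, 2449 and 2198 in T2 cells, with overlapping populations. Rab3il1, on the far side of Fads3, had no read.

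Fads1 took 20.6% ± 0.656 of the summed Fads1 to Fads3 level per kb in T1 and 65.1% ± 3.02 in T2 cells (SD, n = 3). Fads2 took 46.6% ± 5.55 and 25.6% ± 1.92, and Fads3 32.8% ± 4.96 and 9.23% ± 1.21. The Fads2 level per kb was 2.27 ± 0.331 times that of Fads1 in T1 and 0.395 ± 0.0483 times in T2 cells. The Fads2 and Fads3 windows printed above share the GC box and differ in the CCAAT box, which Fads3 holds at positions -106 and -78 and Fads2 does not hold.

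The members were then read beside 140 other lipid genes in 8 lists, which were put together with earlier results of these data known. Of these, 138 had a row and 117 were compared. A gene rose or fell here where its adjusted p was under 0.01 (limma with Benjamini-Hochberg adjustment), to be read beside the 25.1% and 24.4% of all genes.

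**Figure D4:**
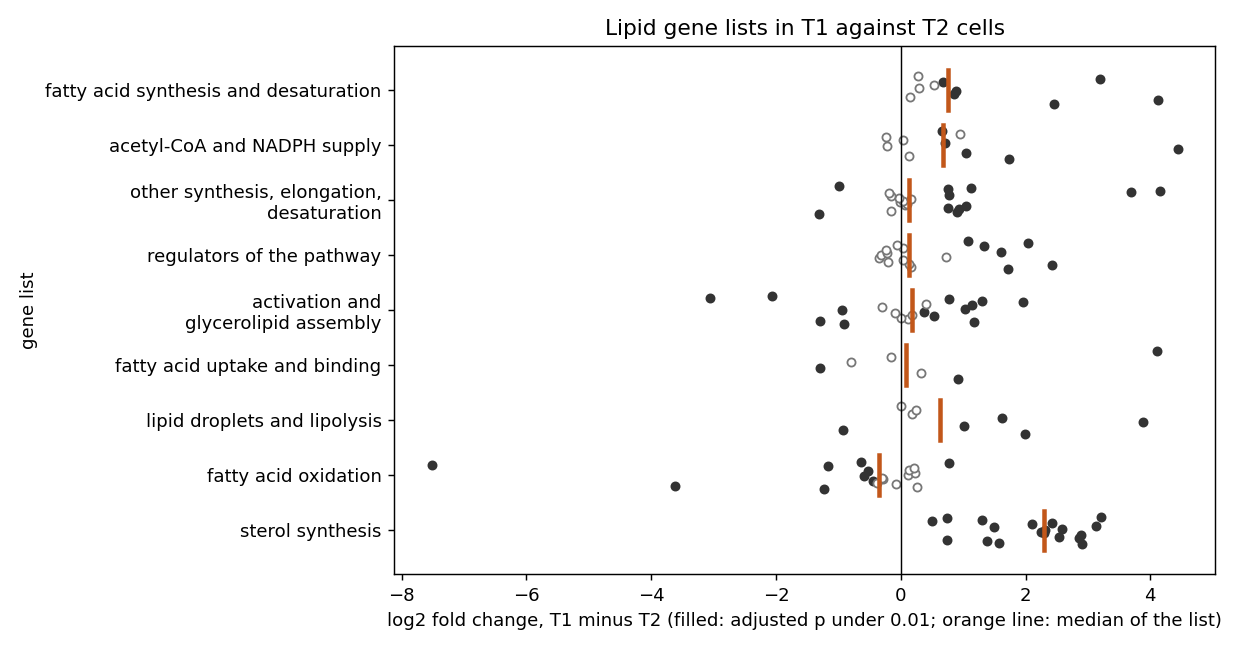
Log2 fold change of T1 over T2 cells for each compared gene of the members (top row, chosen on this comparison) and of 8 other lipid gene lists, with filled points at an adjusted p under 0.01 and orange lines at the list medians. All 19 sterol synthesis genes lie to the right of 0, and the point far to the left is Decr1, whose T1 libraries had no read.

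The plot of lipid gene lists places the members, with their median of 0.76, between the oxidation list at -0.34 and the sterol synthesis list at 2.30. The enzymes around the members are described first.

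Of 10 compared genes that supply acetyl-CoA and NADPH, 5 rose in T1 cells and 0 fell, with a median log2 fold change of 0.68. Slc25a1, the mitochondrial citrate carrier that feeds Acly, was at 1453 ± 159 normalized counts in T1 and 436 ± 38.5 in T2 cells (SD, n = 3), a log2 fold change of 1.73 (SE 0.11, adjusted p = 5.7e-07, limma with Benjamini-Hochberg adjustment). Mitochondrial malic enzyme Me2 rose by 1.05 on the log2 scale and Pgd, an NADPH-producing enzyme of the pentose phosphate pathway, by 0.71. Me3, another mitochondrial malic enzyme, had 40, 56 and 78 reads in the T1 libraries and 2, 1 and 2 in the T2 libraries. Me1, the cytosolic malic enzyme classed with lipogenesis, had means of 702 and 640.2 normalized counts and did not pass the test, at an adjusted p of 0.25 from limma with Benjamini-Hochberg adjustment.

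Of 20 other genes of acyl chain synthesis, elongation and desaturation, 9 rose and 2 fell, with a median log2 fold change of 0.13. Those that rose were led by Fads3 and Scd4 and also held Cyb5b, a cytochrome b5 of the outer mitochondrial membrane, at 10728 against 4919 normalized counts. Acacb, the carboxylase isoform tied to mitochondria, went the other way from Acaca, at 20.4 ± 5.74 in T1 and 51.4 ± 7.25 in T2 cells (SD, n = 3). Its log2 fold change was -1.32 (adjusted p = 0.0021, limma with Benjamini-Hochberg adjustment), and without T2 replicate 1 the adjusted p was 0.015. Elovl5, the elongase that works on the products of Fads2, was at 1542 ± 47.2 and 1465 ± 73.9, with overlapping samples and a log2 fold change of 0.07.

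Among 17 compared regulators of the pathway 6 rose and 0 fell, with a median of 0.13. Srebf2, which encodes the SREBP that governs sterol genes, was at 7163, 6824 and 7159 normalized counts in T1 and at 2046, 2520 and 1870 in T2 cells. Its samples were far apart, with a log2 fold change of 1.73 (SE 0.10, adjusted p = 3.5e-07, limma with Benjamini-Hochberg adjustment). Insig1, which holds SREBP in the endoplasmic reticulum and is itself an SREBP target, was at 3163 ± 496 and 604 ± 206 (SD, n = 3), a log2 fold change of 2.43 (SE 0.20, adjusted p = 3.1e-06 by the same limma fit).

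Other parts of the same control machinery did not pass the test, with log2 fold changes of 0.16 for Scap, the SREBP escort, and 0.13 for Insig2. Mid1ip1, which activates the Acaca protein, rose by 1.60 on the log2 scale. The liver X receptor Nr1h2 was at -0.35 (adjusted p = 0.023, limma with Benjamini-Hochberg adjustment), and passed at 0.0039 without T1 replicate 3. Nr1h3 was at 0.73 (adjusted p = 0.095, limma), and Mlxipl, the carbohydrate-responsive factor ChREBP, had no read in any library. Trib3, a pseudokinase that promotes breakdown of the Acaca protein, was at 495, 524 and 2636 in T1 cells and at 259, 224 and 165 in T2 cells. T1 replicate 3 alone carried most of its T1 mean, but Trib3 still passed an adjusted p under 0.01 in the limma fit without that sample. Among the other regulators, 3 fell at the same threshold without T1 replicate 3. The adjusted p of Trib3, 0.0060 by limma with Benjamini-Hochberg adjustment, was 0.016 to 0.035 without any 1 of the T2 samples and 0.032 without a variance trend.

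Genes that use or store the products moved in both directions. In fatty acid activation and glycerolipid assembly 8 of 19 rose and 5 fell, with a median of 0.17. Dgat2, which makes triacylglycerol, was at 290 ± 48.0 in T1 and 72.9 ± 4.86 in T2 cells, and Lpcat3, which puts polyunsaturated chains into phospholipid, at 1037 ± 13.6 and 422 ± 18.4 (SD, n = 3). Soat1, which esterifies cholesterol, was at 999 ± 120 and 4149 ± 246, a log2 fold change of -2.06 (adjusted p = 7.0e-08, limma with Benjamini-Hochberg adjustment). Mboat2, which favours monounsaturated chains, the products of the Scd enzymes, also fell, at 5.32 ± 1.85 and 51.1 ± 10.4 normalized counts.

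Of 8 compared genes of lipid droplets and lipolysis 4 rose and 1 fell, with a median of 0.63. The droplet coat gene Plin2 was at 4491, 5031 and 4997 normalized counts in T1 and at 1069, 1277 and 1306 in T2 cells, a log2 fold change of 1.99 (adjusted p = 6.7e-08, limma with Benjamini-Hochberg adjustment). The lipases Lipe and Pnpla2 rose by 1.62 and 1.01 on the log2 scale. Pnpla3, a known SREBP-1 target, had 18, 26 and 24 reads in the T1 libraries and 1, 0 and 1 in the T2 libraries.

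In uptake and binding 2 of 6 compared genes rose and 1 fell, with a median of 0.08. Mfsd2a, a carrier of polyunsaturated lysophospholipid, was at 980, 926 and 583 normalized counts in T1 and 49.0, 72.7 and 26.9 in T2 cells, with no overlap and a log2 fold change of 4.11. The fatty acid transporter Slc27a1 fell by 1.30 on the log2 scale.

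Fatty acid oxidation, which breaks down what the members build, had 1 gene that rose and 8 that fell among 18, with a median log2 fold change of -0.34. Cpt1a, the gate for entry of acyl chains into mitochondria, was at 433, 446 and 437 normalized counts in T1 and at 922, 1341 and 878 in T2 cells, a log2 fold change of -1.23 (SE 0.15, adjusted p = 5.2e-05, limma with Benjamini-Hochberg adjustment). Cpt1c, its neuronal isoform, was at 23.3 ± 12.0 and 276 ± 24.6 (SD, n = 3). Decr1, the mitochondrial reductase needed to oxidise polyunsaturated chains, had 0, 0 and 0 reads in the T1 libraries and 210, 124 and 251 in the T2 libraries. In T1 cells it was at least 63.6-fold lower, counting 3 reads per library as the floor, and the bound covers counting error only. The median of the list is -0.34 with Decr1 at this bound too.

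In sterol synthesis, the other branch under SREBP control, all 19 genes were compared and all 19 rose, 12 of them past a log2 fold change of 2, with a median of 2.30. Msmo1 rose by 3.13 on the log2 scale, and Hmgcs1 and Fdps by 2.90 and 2.89. Fasn, Srebf1 and Acss2 all lay below the smallest difference of this list, 0.50. Of 14 sterol genes with a RefSeq window all 14 held the CCAAT box, beside 4 of 7 members and 41.1% of all genes. The GC box was in 13 of them, beside 4 of 7 members and 38.2% of genes. The E-box was in 3, beside 0 of 7 members and 8.09% of genes. The core of the sterol regulatory element was in 1, Hmgcs1, beside 0 of 7 members and 0.614% of genes.

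The profiles most like 3 of the members over the 6 samples were found by the Euclidean distance of log2(normalized count + 1), each gene centred on its mean, among 11387 genes outside the lipid lists. Nearest to Scd1 were 2310030G06Rik at a distance of 0.356, Dmtn at 0.428 and Bach2 at 0.476. Nearest to Fasn were Sec14l2 at 0.0742, Aste1 at 0.125 and Txnrd1 at 0.128, and nearest to Srebf1 were Rnf10 at 0.0592, Trim16 at 0.0702 and Snrpb at 0.0707. Genes with small differences lie close to many others on this measure, and the distances describe these 6 samples without a test.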

How the data were processed

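RNA sequencing of 3 T1 and 3 T2 samples was used. Per the paper's methods and the submitters' processing notes, the authors trimmed reads with Trimmomatic, used TopHat2 for alignment to mm10 and HTSeq for read counts of genes, and normalized by the median of ratios of DESeq2. Versions, annotation and strand setting are not given in the sources used here. The deposited signal is therefore the authors' count after division by the size factor of its sample. Whole reads were recovered for 100% of values, within 0.001 of a whole number at low counts and within a tolerance widened in proportion at high counts. The parental cells were not analysed here, and 27 rows whose gene names had become dates are not named.

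The 11514 genes whose mean reached 10 normalized counts were compared on log2(value + 1) by limma 3.58.1 in R 4.3.3 with a variance trend and Benjamini-Hochberg adjustment, at an adjusted p under 0.01, and for the stricter rule a log2 fold change above 2. On recovered reads edgeR 4.0.16 called 5716 genes and DESeq2 1.42.0 called 6067 at that adjusted p, where limma called 5701. The limma fit alone was run on simulated counts with 200 changed genes and 1 dispersion of 0.02 for all genes. It found 59 of 67 changes of 1 on the log2 scale, 67 of 67 of 2 and 66 of 66 of 3, and called 1 of 11314 unchanged genes. The data differ from this setting, with far more genes called and a spread that varies between genes. With 3 samples against 3 the spread sets the precision.

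Members and lists were chosen with earlier results of these data known. Genes named are the members, up to 4 genes per list with the largest log2 fold change among those past an adjusted p of 0.01 with T1 and T2 samples apart, further genes fixed by name, nearest profiles and neighbours, some of which are not reported here. Marker genes were named from lists of cell types. Lengths and coordinates are from GENCODE M21 (mm10), where 23103 names and all 10 members matched by symbol. Alternatives were other pseudocounts, filters, scaling, tests and call rules, a replicate block and leaving out each sample.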

Additional observations from a re-analysis of the deposited data

How the results depend on the processing

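The log2 fold changes of the 10 members were recomputed under 15 alternatives, and all 150 values moved by less than the residual SD between replicates. For many of these alternatives that outcome was fixed in advance. Leaving out 1 sample cannot move a value by more than that SD. The count filters, the fit without a variance trend and the replicate block leave the value unchanged. At an adjusted p under 0.01 the members with higher T1 values were 6 to 8, the 8 under DESeq2, and those past both filters were 3 throughout. With an adjusted p under 0.05 and a log2 fold change above 1 as the call, 1135 of all genes were higher and 1310 lower, and 39 other lipid genes were higher and 9 lower, where 480, 484, 19 and 4 passed both filters. Leaving out 1 sample at a time gave 2405 to 2896 higher and 2251 to 2901 lower genes at an adjusted p under 0.01 and 466 to 495 and 463 to 496 past both filters, 6 to 7 members at the adjusted p, and, of the other lipid genes, 52 to 54 higher and 15 to 22 lower at the adjusted p and 19 to 20 and 3 to 4 past both filters. Of 578 values of other named genes 572 kept their side of the threshold, 5 lost the call (Acacb and Trib3) and 1 gained it (Nr1h2). Direction was checked only for genes past the threshold in the main fit or in the alternative, and 0 of these reversed. A change of sign in a gene past it in neither fit was not counted. Of 240 counts over the lists 5 moved by more than 1.5 times, all of genes that fell: 3 regulators without T1 replicate 3 and 1 by DESeq2 in place of 0, 1 gene of acyl chain synthesis without T2 replicate 1 and with a mean of at least 50 in place of 2, and 2 uptake genes without the low-count filter in place of 1. The Scd1 share of Scd1 and Scd2 ranged from 7.76% to 9.27% in T1 cells and from 21.4% to 25.1% in T2 cells when a sample was left out.

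The labels number replicates 1 to 3 in both populations, and the main fit did not take these numbers as pairs. Same-numbered samples correlated in their deviations at 0.0575, 0.172 and 0.104, and differently numbered ones at -0.152 to 0.0719. A weak shared batch was not tested. With the replicate block 2926 genes were higher and 2854 lower at an adjusted p under 0.01, 481 were higher past both filters, and 6 and 3 members passed the 2 rules. Of the 6 samples 5 correlated best with their own number. Depth limits Scd3, Scd4, Me3, Pnpla3, Acacb, Mboat2 and Nr1h3, which had under 100 reads in every library, and exonic overlaps limit Acss2, Srebf1 and Elovl6.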
